A study of Mus musculus with 6 samples.

Results

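The cytochrome P450 genes of families 1 to 4 were examined in intestinal adenomas of mice that carried 1 of 2 mutant alleles of the tumour suppressor gene Apc. Members were the protein-coding genes with a mouse gene symbol of Cyp1, Cyp2, Cyp3 or Cyp4, then a single subfamily letter and a number. This rule reads symbols and no measured value, but members were chosen with earlier results of these data known. The rule found 75 members among the 34866 genes of the expression table, in 21 subfamilies: 3 Cyp1, 48 Cyp2, 7 Cyp3 and 17 Cyp4 genes. A further 35 genes of these families were outside the rule, most of them pseudogenes, and 6 were protein-coding (Cyp2ab1, Cyp3a41a, Cyp3a41b, Cyp4a12a, Cyp4a12b and Cyp4a30b).

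RNA of adenomas excised from the intestine was sequenced in 3 libraries of heterozygous Apc1322T/+ mice and 3 libraries of heterozygous ApcMin/+ mice, all of the C57BL/6J strain and 100 to 120 days old. Both alleles encode a truncated Apc protein, the ApcMin product being the shorter of the pair, and every mouse also carried 1 normal Apc allele in its germline. The study states that ApcMin adenomas arise through loss of heterozygosity of Apc in an epithelial cell. Whether the adenoma cells kept the normal allele was not examined here. According to the study's methods, a sample usually pooled a few RNA extractions from the same mouse. The labels do not say which libraries came from separate mice, so the p-values measure the spread between these libraries. No normal intestine was part of this comparison, and the question was how the adenomas of the 2 genotypes differ.

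P450 enzymes are haem proteins of the endoplasmic reticulum that insert an oxygen atom into their substrates with electrons delivered by P450 oxidoreductase (Por). Families 1 to 3 oxidise drugs, dietary compounds and steroids, many of them under the control of ligand-activated receptors, whereas family 4 hydroxylates the far end of fatty acids and of lipid mediators such as leukotrienes. In the intestine, absorptive enterocytes of the villus hold much of the P450 content, and the Cyp3a enzymes there act on swallowed compounds before they reach the liver.

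Library totals ran from 23132461 to 33518324 estimated counts, so that 3 counts corresponded to 0.0838 to 0.143 CPM (counts scaled to a common library size). These figures cover counting error only. Libraries differed in cell content. The pancreatic acinar genes Ctrb1 and Cela2a were prominent in ApcMin replicate 1 alone, at log2 CPM of 6.23 and 4.51. The sum of the 7 acinar markers was 270 CPM there, 180 CPM in ApcMin replicate 3 and 153 CPM in Apc1322T replicate 1. The ileal bile acid genes Fabp6 and Slc10a2 were high in ApcMin replicates 1 and 2. Fabp6 was at 6.99 and 6.37 in these, against 0.07 or less in the other libraries. In bulk tissue, fewer cells of a type and less RNA per cell cannot be told apart. The epithelial genes Epcam and Krt8, which define the labelled tissue, were abundant in every library, at log2 CPM of at least 10.81 and 11.81.

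The P450 RNA of these adenomas came mostly from a few genes. After scaling to exon length, Cyp3a13, the main Cyp3a gene of the mouse intestine, had the highest level, with a mean of 210.0 CPM per kb over the 6 libraries. Cyp4f14, a leukotriene and fatty acid hydroxylase, followed with 101 CPM per kb, then Cyp2d26 with 67.7, the drug-metabolising Cyp3a11 with 58.6, Cyp3a25 with 50.6 and Cyp2c65 with 46.8 CPM per kb. The order among these neighbours was not fixed: Cyp4f14 ranged from 31.6 to 167 CPM per kb and Cyp2d26 from 35.7 to 110.2 CPM per kb, so the levels of both overlapped. Cyp3a13 stood above every other member in each library, with 117 to 328 CPM per kb. On the CPM scale rather than per kb, Cyp3a13 and Cyp3a11 together took 42.9% of the summed CPM of all members, the 5 leading genes 66.5% and the 10 leading genes 87.7%.

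**Figure D1:**
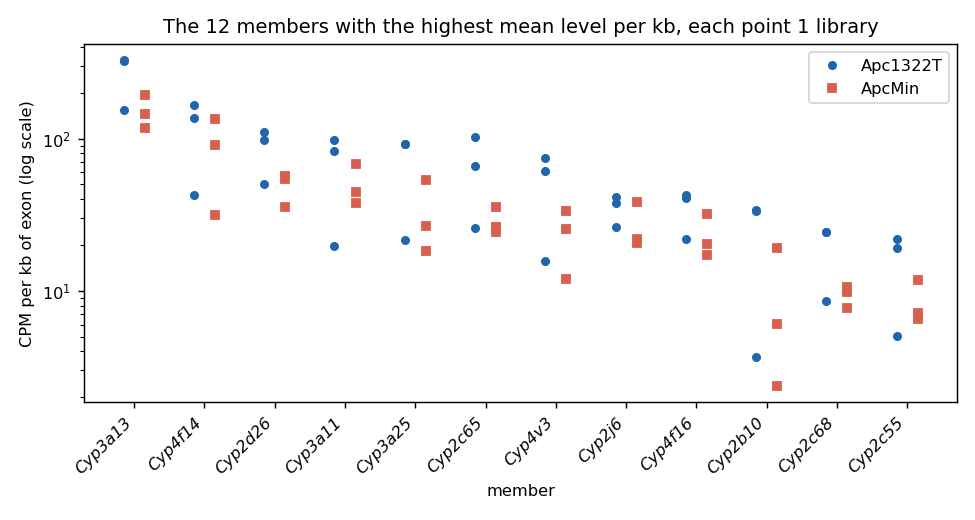
CPM per kb of exon on a log axis for the 12 members with the highest mean level, 1 point per library, with Apc1322T libraries as blue circles and ApcMin libraries as red squares. Cyp3a13 lies at the top in both genotypes, and in most members 2 Apc1322T points lie above the ApcMin points while the remaining Apc1322T point lies among or below them.

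Of the 75 members, 37 had enough counts to be tested and 38 did not. A quasi-likelihood fit in edgeR over 16536 genes gave the differences between genotypes, and log2 fold changes are given as ApcMin minus Apc1322T. By that test no member reached a Benjamini-Hochberg adjusted p under 0.01, the threshold of the study, and 0 of all 16536 genes did (0% of them). The study itself applied that threshold in DESeq2 and reported significant changes between these genotypes, so the edgeR count is not its count. The smallest adjusted p of a member was 0.288, for Cyp2w1. At an unadjusted p under 0.05 there were 6 members of 37 (16.2%), 4 of them lower and 2 higher in ApcMin, beside 15.1% of all genes tested. In this fit the members' share was close to the background. Of the other tools, limma-voom also gave 0 members at an adjusted p under 0.01, and 1 of 37 at an unadjusted p under 0.05 beside 14% of all genes. DESeq2 gave 1 member of 66 at an adjusted p under 0.01 (Cyp2a5, described with the untested genes) beside 194 of 25171 genes, or 0.771%, and 10 of 66 at an unadjusted p under 0.05 beside 11.5% of all genes.

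Log2 fold changes of the tested members ran from -2.39 for Cyp2e1 to 1.98 for Cyp2w1. They were below 0 in 30 of 37 members (81.1%), whereas 47.6% of all genes tested were below 0, and the median was -0.44 against 0.02 over all genes. With upper-quartile scaling 27 members were below 0. In 10 members (27%) the value was under -1, as in 1.62% of all genes, and in 2 members it was over 1, as in 4.66% of all genes. These shares describe the members that passed the filter and carry no test, because the members varied together from library to library. Only Cyp2r1 and Cyp2w1 had no overlap between the libraries of the genotypes, 5.41% of the members tested, while 21% of all genes tested had none (9.96% lower and 11% higher in ApcMin).

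**Figure D2:**
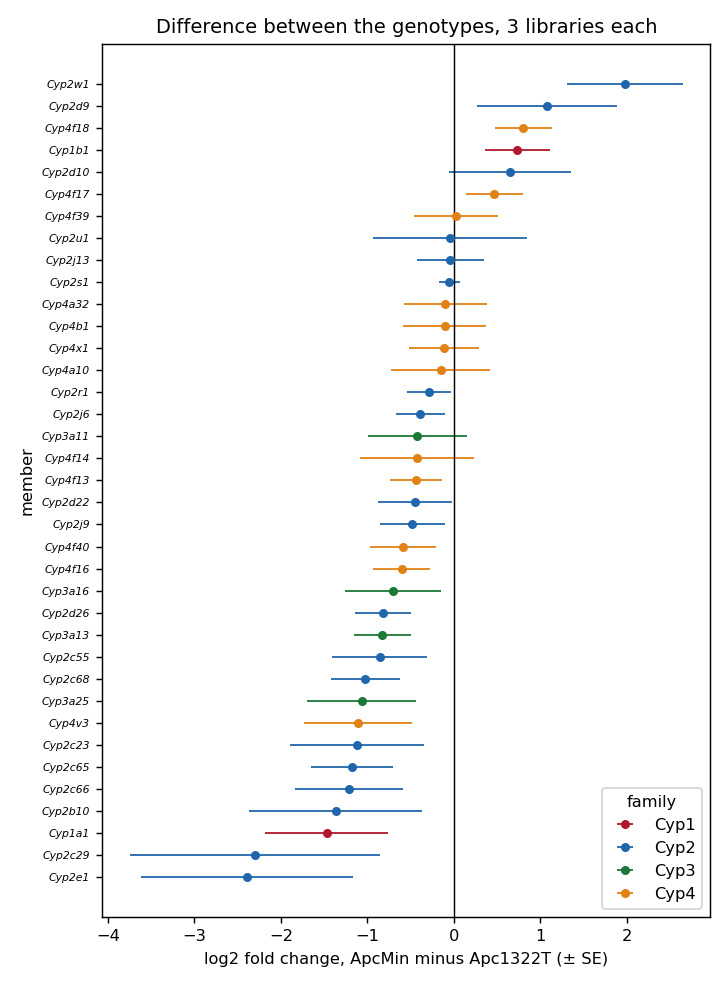
Log2 fold change (ApcMin minus Apc1322T) with its standard error for the 37 members tested, ordered by size and coloured by family. Most points lie left of 0, from Cyp2e1 at -2.39 upwards, and the bars of many members are as long as their distance from 0.

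Members varied widely within Apc1322T. Apc1322T replicates 2 and 3 held the highest value of 27 of the 37 members (73%), compared with 34.6% of all genes tested. Apc1322T replicate 1 held the highest value of 1 member, beside 15.2% of all genes, and the lowest of 10, beside 15.4%. ApcMin replicates 3 and 1 held the lowest value of 11 and 9 members, beside 19.4% and 13.2% of all genes. Both replicates 2 and 3 exceeded replicate 1 by more than 1 on the log2 scale in 18 members (48.6%), as against 4.62% of all genes. For each gene the larger of its SDs within a genotype was taken. The median of this SD was 0.86 on the log2 scale over the members tested and 0.26 over all genes tested.

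**Figure D3:**
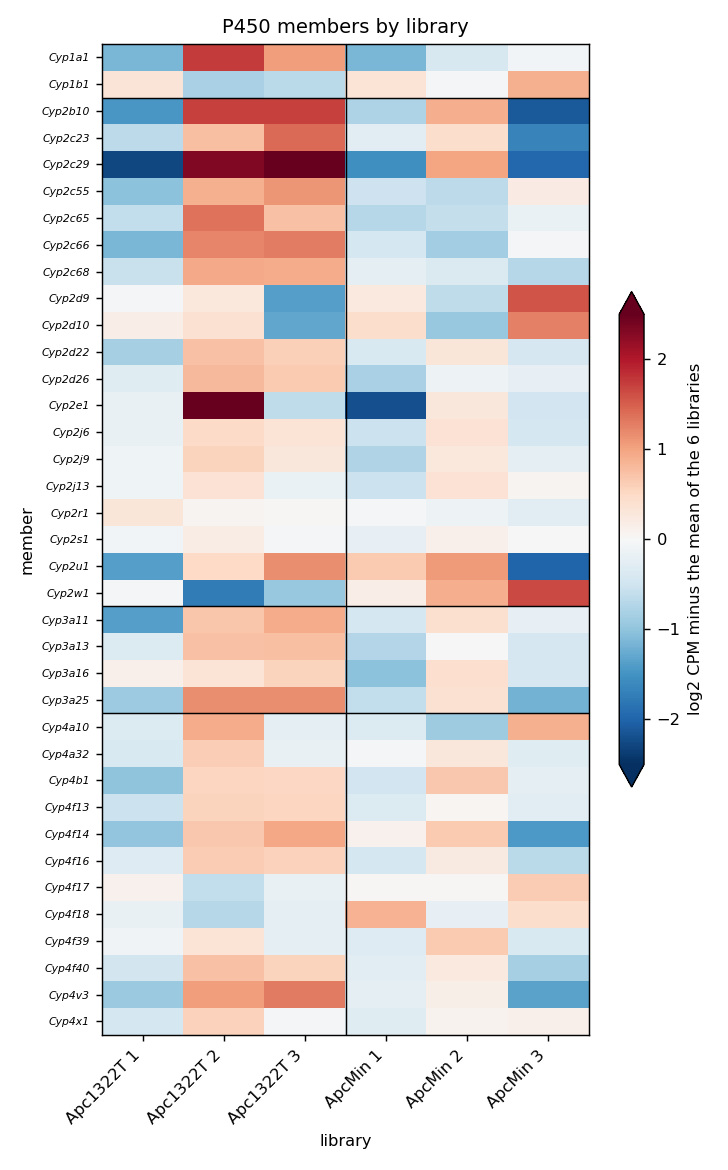
Log2 CPM of the 37 tested members in the 6 libraries, each row centred on its own mean, with red above and blue below that mean and horizontal lines between families. The columns of Apc1322T 2 and Apc1322T 3 are red for most members, and the column of Apc1322T 1 resembles those of ApcMin 1 and ApcMin 3.

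Summed by family, the Cyp3 genes gave 602, 1575 and 1660 CPM in Apc1322T replicates 1 to 3 and 596, 1027 and 694 CPM in the ApcMin replicates. The Cyp2 sum was 344, 832 and 712 CPM in Apc1322T and 309, 462 and 377 CPM in ApcMin. The Cyp4 sum was 287, 818 and 927 CPM in Apc1322T and 450, 652 and 244 CPM in ApcMin. In each of these 3 families Apc1322T replicates 2 and 3 lay above every other library and Apc1322T replicate 1 lay within the ApcMin range. The ApcMin mean of 772 ± 226 CPM (SD, n = 3) for Cyp3 was within 1 SD of the Apc1322T mean of 1279 ± 588 CPM. The Cyp1 sum, of which Cyp1b1 made up 70.4% and 80.9% in Apc1322T replicates 2 and 3 and 94.7% or more elsewhere, had another order, with 53.4, 33.7 and 32.1 CPM in Apc1322T and 54.0, 42.7 and 79.6 CPM in ApcMin.

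**Figure D4:**
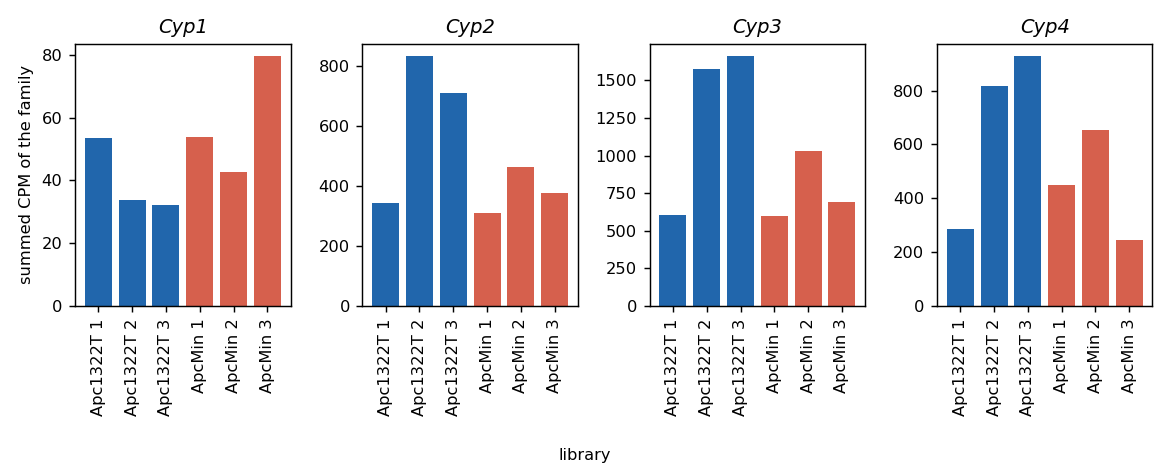
Summed CPM of the members of each family in each library, with Apc1322T in blue and ApcMin in red and the axis starting at 0. Cyp2, Cyp3 and Cyp4 peak in Apc1322T 2 and 3, at 818 CPM or more for Cyp4, whereas Cyp1 is highest in ApcMin 3 at 79.6 CPM.

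The Cyp1 genes are the classical targets of the aryl hydrocarbon receptor (Ahr), which is activated by polycyclic hydrocarbons and by indoles from the diet and from bacteria. Cyp1a1, which oxidises such ligands, had log2 CPM values of 0.44, 3.33 and 2.63 in Apc1322T and of 0.44, 1.19 and 1.51 in ApcMin. The genotypes overlapped through the low Apc1322T replicate, and the log2 fold change was -1.47 ± 0.71 (SE; edgeR adjusted p = 0.373). Cyp1b1, which acts on oestrogens and hydrocarbons and is also known from stromal cells, had values of 5.71, 4.57 and 4.70 in Apc1322T and of 5.72, 5.34 and 6.26 in ApcMin, a log2 fold change of 0.74 ± 0.38 (edgeR adjusted p = 0.391). The Apc1322T library lowest for Cyp1a1 was the highest of its genotype for Cyp1b1. Cyp1a2, a largely hepatic gene next to Cyp1a1 on chromosome 9, had at most 2 counts in any library and was not tested.

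Ahr itself had log2 CPM values of 4.37, 4.49 and 4.53 in Apc1322T and of 4.65, 4.85 and 4.68 in ApcMin, without overlap, and a log2 fold change of 0.27 ± 0.10 (edgeR adjusted p = 0.311). Of 5 other Ahr targets, 4 were tested and none had an unadjusted p under 0.05. Their values ranged from -0.29 for the quinone reductase Nqo1 to 0.25 for the glucuronosyltransferase Ugt1a6a. The untested target, the aldehyde dehydrogenase Aldh3a1, had log2 CPM values of -1.96, -1.93 and -1.40 in Apc1322T and of -1.02, 0.37 and -1.36 in ApcMin, which did not overlap. The promoters of the pair of tested Cyp1 genes are shown because they hold the core letters of the Ahr response element, GCGTG or its reverse complement, given in capitals. Both are RefSeq sequences of build GRCm38.p6 in the direction of the gene, from chr9:57697519-57697608 on the plus strand and chr17:79715088-79715177 on the minus strand. The core starts 54 bases before the start of Cyp1a1 and 76 bases before that of Cyp1b1.
Cyp1a1: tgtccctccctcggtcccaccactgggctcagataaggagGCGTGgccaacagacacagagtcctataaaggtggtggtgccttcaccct
Cyp1b1: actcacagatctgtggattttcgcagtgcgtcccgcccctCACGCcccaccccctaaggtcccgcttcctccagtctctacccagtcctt
These letters are common: within 250 bases upstream, on either strand, they occurred in 30.9% of 27025 genes and in 12 of the 62 members with a promoter sequence (19.4%). A match of these letters is not evidence that Ahr acts through that site. Sequence further upstream was not searched.

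The Cyp2c enzymes include arachidonic acid epoxygenases, which make vasoactive epoxides, and steroid and drug hydroxylases. Of 15 Cyp2c members 6 were tested, all with log2 fold changes between -2.30 and -0.86. The most abundant per kb was Cyp2c65, an intestinal member that oxidises arachidonic acid, with log2 CPM values of 5.65, 7.62 and 7.00 in Apc1322T and of 5.56, 5.66 and 6.10 in ApcMin. Apc1322T replicate 1 again lay inside the ApcMin range, and the log2 fold change was -1.18 ± 0.47 (unadjusted p under 0.05, edgeR adjusted p = 0.325). Cyp2c55, a colonic and intestinal epoxygenase, had 3.33, 5.25 and 5.45 against 3.84, 3.70 and 4.56, and Cyp2c66 had 1.89, 4.27 and 4.32 against 2.60, 2.16 and 3.01, with log2 fold changes of -0.86 ± 0.55 and -1.22 ± 0.62. Cyp2c68 had log2 CPM values of 3.90, 5.40 and 5.39 in Apc1322T and of 4.20, 4.09 and 3.75 in ApcMin, a log2 fold change of -1.02 ± 0.40 (unadjusted p under 0.05, edgeR adjusted p = 0.319). For each of these 4 genes, Apc1322T replicates 2 and 3 exceeded every ApcMin library.

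Cyp2c55, Cyp2c65 and Cyp2c66 are neighbours on the plus strand of chromosome 19, between 39007019 and 39187072 (GRCm38). Their first 60 coding bases are shown because they bear on how well the counts can be told apart. Capitals mark the bases that differ from Cyp2c65.
Cyp2c55: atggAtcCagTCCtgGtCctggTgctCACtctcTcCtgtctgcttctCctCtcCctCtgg
Cyp2c65: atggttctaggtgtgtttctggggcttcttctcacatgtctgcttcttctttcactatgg
Cyp2c66: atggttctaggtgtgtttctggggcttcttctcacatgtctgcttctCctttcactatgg
Over 1470 coding bases, Cyp2c66 was 96.3% identical to Cyp2c65 and Cyp2c55 75.1%. Of the 50-base windows in the exons of Cyp2c66, 19.5% also occurred in Cyp2c65, so a part of the reads of this pair can be assigned only by estimation, whereas Cyp2c55 shared 0.514% of its windows with any gene. Cyp2c68 shared 43.3% of its windows, mainly with Cyp2c40, which had at most 5 counts in any library. Among the tested members 7 shared over 20% of their windows with another gene and 22 shared under 5%.

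Cyp2c29, another epoxygenase best known from liver, had the largest SD within a genotype of all members, 2.70 on the log2 scale in Apc1322T. Its log2 CPM values were -3.19, 1.40 and 1.59 in Apc1322T and -2.44, 0.08 and -2.87 in ApcMin, from 1, 54 and 67 counts and from 4, 25 and 2 counts. The log2 fold change of -2.30 ± 1.44 (edgeR adjusted p = 0.464) was the second lowest of the members. Cyp2b10, the standard target of the constitutive androstane receptor Nr1i3, behaved in a like way at a higher level. It had log2 CPM values of 2.98, 6.16 and 6.15 in Apc1322T and of 3.68, 5.35 and 2.34 in ApcMin, a log2 fold change of -1.37 ± 1.00 (edgeR adjusted p = 0.523). For both genes ApcMin replicate 2 was the highest ApcMin library. Nr1i3 had log2 CPM values of 2.97, 4.85 and 4.65 in Apc1322T and of 3.05, 4.42 and 3.70 in ApcMin, with the same 3 libraries on top. That order was not particular to Nr1i3 and Cyp2b10. The sum of all members was also highest in Apc1322T replicates 2 and 3 and ApcMin replicate 2, at 3258, 3330 and 2184 CPM. So was the sum of the enterocyte markers. A link between Nr1i3 and Cyp2b10 was not tested.

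Among the Cyp2j genes, which also make epoxides of arachidonic acid, Cyp2j6 was the most abundant per kb. Its log2 CPM values of 6.57, 7.22 and 7.09 in Apc1322T and of 6.22, 7.10 and 6.30 in ApcMin gave a log2 fold change of -0.39 ± 0.29 (edgeR adjusted p = 0.527). The related Cyp2j9 and Cyp2j13 had log2 fold changes of -0.48 and -0.04. Of the enzymes that share these substrates, soluble epoxide hydrolase (Ephx2), which removes the epoxides, had log2 CPM values of 6.64, 8.00 and 7.95 in Apc1322T and of 6.77, 7.09 and 6.54 in ApcMin, and a log2 fold change of -0.83 ± 0.37 (edgeR adjusted p = 0.349). Prostaglandin synthase 1 (Ptgs1) was at 4.21, 4.02 and 4.14 in Apc1322T and at 4.57, 4.78 and 4.90 in ApcMin, without overlap, with a log2 fold change of 0.63 ± 0.12 (edgeR adjusted p = 0.257). In the list of 10 eicosanoid enzymes 1 gene was higher and 1 (leukotriene A4 hydrolase, Lta4h) lower at an unadjusted p under 0.05. Of all genes tested, 7.49% were higher and 7.6% lower at that level. The median log2 fold change of the list was 0.37.

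The Cyp2d genes, relatives of the human gene of debrisoquine and codeine metabolism, split by abundance. Cyp2d26, the most abundant, had log2 CPM values of 6.50, 7.63 and 7.47 in Apc1322T and of 6.00, 6.68 and 6.60 in ApcMin, a log2 fold change of -0.82 ± 0.33 (unadjusted p under 0.05, edgeR adjusted p = 0.321). Only Apc1322T replicate 1 reached into the ApcMin range. Cyp2d22, the next in level, had a log2 fold change of -0.44 ± 0.43. The rare Cyp2d9 and Cyp2d10, at no more than 37 and 60 counts, lay on the other side of 0 at 1.08 ± 0.81 and 0.65 ± 0.71, and were highest in ApcMin replicate 3 and lowest in Apc1322T replicate 3. Cyp2d9 and Cyp2d10 shared 21.8% and 35.8% of their windows with other genes.

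Cyp2e1, which oxidises ethanol and acetone, had the largest log2 fold change of the members by size, and it rested on 1 library. Its log2 CPM was 4.10 in Apc1322T replicate 2, where it had 359 counts, and 0.72 and 0.28 in the other Apc1322T replicates, as against -1.29, 1.19 and 0.42 in ApcMin. The log2 fold change was -2.39 ± 1.22 (edgeR adjusted p = 0.393), and it was -0.12 when Apc1322T replicate 2 was left out.

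The 4 remaining tested Cyp2 genes each form a subfamily of their own. Cyp2r1, the vitamin D 25-hydroxylase, had log2 CPM values of 1.14, 0.91 and 0.87 in Apc1322T and of 0.81, 0.72 and 0.58 in ApcMin. The genotypes did not overlap, but the gap between the nearest libraries was small and the log2 fold change was -0.28 ± 0.25 (edgeR adjusted p = 0.594). Cyp2s1, an extrahepatic epithelial P450 that metabolises retinoids and eicosanoids, was the steadiest of the abundant members across libraries, with 5.78, 6.02 and 5.80 in Apc1322T and 5.64, 5.97 and 5.84 in ApcMin. Its log2 fold change of -0.05 ± 0.12 (edgeR adjusted p = 0.853) had the smallest SE of all members tested.

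Cyp2u1, a fatty acid hydroxylase, split the libraries along another line. Its log2 CPM was 2.57, 3.25, 2.74 and 3.14 in Apc1322T replicates 2 and 3 and ApcMin replicates 1 and 2, and 0.69 and 0.07 in Apc1322T replicate 1 and ApcMin replicate 3. The log2 fold change was -0.04 ± 0.89. The same 2 libraries were lowest for the distal small intestine marker Cubn, at 3.62 and 2.75 against 5.43 or more elsewhere. They were also lowest for Mep1a of that list, at 3.25 and 2.59 against 5.55 or more. Slc10a2, Slc51a and Slc51b of the list had the same 2 lowest libraries, but Nr1h4 and Fabp6 did not. Nr1h4 was highest in ApcMin replicate 3, at 4.64, and Fabp6 was lower in every Apc1322T library than there. The split was not particular to the distal list. Apc1322T replicate 1 and ApcMin replicate 3 were also the 2 lowest libraries for the enterocyte markers Sis, Anpep, Fabp2, Slc5a1, Treh and Mgam. For the enterocyte markers Alpi, Lct, Apoa1, Apoa4, Apob, Fabp1 and Mttp they were not.

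Cyp2w1, a P450 known from fetal gut and from colon tumours, was the only member with both a p under 0.05 and no overlap. It had 13, 2 and 5 counts in Apc1322T and 20, 25 and 54 counts in ApcMin, or log2 CPM values of -0.86, -2.57 and -1.78 against -0.66, 0.08 and 0.83. All 3 ApcMin libraries lay above all 3 Apc1322T libraries by a narrow margin at the nearest pair. The log2 fold change was 1.98 ± 0.67 (unadjusted p under 0.05, edgeR adjusted p = 0.288). None of its 50-base windows occurred in another gene.

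All 4 tested Cyp3a genes had log2 fold changes below 0. Cyp3a13 had log2 CPM values of 8.83, 9.90 and 9.92 in Apc1322T and of 8.44, 9.15 and 8.74 in ApcMin. Replicates 2 and 3 of Apc1322T were above every ApcMin library and replicate 1 was among them, and the log2 fold change was -0.82 ± 0.33 (unadjusted p under 0.05, edgeR adjusted p = 0.321). Cyp3a11, the mouse counterpart of the main human drug-metabolising P450, had 6.65, 8.73 and 8.96 in Apc1322T and 7.59, 8.43 and 7.84 in ApcMin, a log2 fold change of -0.42 ± 0.57. Here Apc1322T replicate 1 was the lowest of all 6 libraries. Cyp3a25 had 5.50, 7.58 and 7.58 against 5.80, 6.79 and 5.24, with a log2 fold change of -1.06 ± 0.63 (edgeR adjusted p = 0.439). The pregnane X receptor Nr1i2, which drives Cyp3a genes, had 5.67, 6.25 and 6.12 in Apc1322T and 5.49, 5.82 and 5.74 in ApcMin, a log2 fold change of -0.34 ± 0.17 (edgeR adjusted p = 0.373).

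The Cyp4a genes, targets of the fatty acid receptor Ppara, were scarce. Cyp4a10 had log2 CPM values of 1.16, 2.43 and 1.29 in Apc1322T and of 1.17, 0.61 and 2.39 in ApcMin, a log2 fold change of -0.15 ± 0.57 (edgeR adjusted p = 0.911), and shared 29.8% of its windows, mostly with Cyp4a32. Cyp4a14, the other classical Ppara target of the subfamily, had no count in any library. Of 10 other Ppara targets, 9 had log2 fold changes below 0, beside 47.6% of all genes tested. At an unadjusted p under 0.05, 3 of the 10 were lower in ApcMin, beside 7.6% of all genes tested. Among them were the fatty acid binding protein Fabp1 at -1.32 ± 0.45 and the peroxisomal enzyme Ehhadh at -0.62 ± 0.21 (edgeR adjusted p = 0.298 and 0.296). Fabp1 is also counted among the enterocyte markers. Ppara itself had a log2 fold change of -0.22 ± 0.21.

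The Cyp4f genes inactivate leukotriene B4 and hydroxylate long-chain fatty acids, and 7 of 9 were tested. Cyp4f14 had log2 CPM values of 6.69, 8.36 and 8.66 in Apc1322T and of 7.79, 8.35 and 6.26 in ApcMin, a log2 fold change of -0.42 ± 0.66 (edgeR adjusted p = 0.770). Its 2 low libraries, Apc1322T replicate 1 and ApcMin replicate 3, were those that were low for Cyp2u1. Cyp4f16 and Cyp4f40, with log2 fold changes of -0.60 ± 0.33 and -0.59 ± 0.38, were also lowest in ApcMin replicate 3. Cyp4f18, the leukotriene B4 hydroxylase of mouse neutrophils, went the other way with 1.74, 1.21 and 1.69 in Apc1322T and 2.79, 1.72 and 2.36 in ApcMin, a log2 fold change of 0.81 ± 0.33 (unadjusted p under 0.05, edgeR adjusted p = 0.322). The macrophage genes Adgre1 and Csf1r had log2 fold changes of 1.03 ± 0.38 and 0.64 ± 0.23 (edgeR adjusted p = 0.311 and 0.309). Like Cyp4f18, both were highest in ApcMin replicate 1. They belong to a list of 8 immune markers, of which 7 were higher and 1 lower in ApcMin. The sum of that list was 351 CPM in ApcMin replicate 1 and was highest in ApcMin replicate 3, at 978 CPM. The part of immune cells in the Cyp4f18 value was not tested.

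Of the single-gene Cyp4 subfamilies, Cyp4v3, a fatty acid hydroxylase whose human counterpart is mutated in a corneoretinal dystrophy, was the most abundant per kb. It had log2 CPM values of 5.91, 7.87 and 8.14 in Apc1322T and of 6.60, 6.99 and 5.50 in ApcMin, a log2 fold change of -1.10 ± 0.62 (edgeR adjusted p = 0.425). Cyp4b1, which acts on medium-chain fatty acids, had 3.52, 5.05 and 5.03 in Apc1322T and 4.04, 5.18 and 4.27 in ApcMin, and a log2 fold change of -0.10 ± 0.48. Cyp4x1, an arachidonoyl-ethanolamide epoxygenase best known from brain, was rare, at 15, 25 and 17 counts in Apc1322T and 22, 21 and 27 counts in ApcMin, with a log2 fold change of -0.11 ± 0.41.

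The 38 untested members were scarce or unseen. In 9 of them no library had a count, which allows a level of up to 0.0838 to 0.143 CPM depending on the library: Cyp2a4, Cyp2a22, Cyp2b13, Cyp2c37, Cyp2c50, Cyp2c54, Cyp2c69, Cyp2j7 and Cyp4a14. In 32 of the 38 no library had more than 10 counts. The gene with the most counts among them was Cyp2a5, a coumarin hydroxylase, with 1, 1 and 0 counts in Apc1322T and 13, 8 and 124 counts in ApcMin. It was singled out after its values were seen. It failed the filter because fewer than 3 libraries reached the minimum, and most of its counts were in ApcMin replicate 3. In DESeq2, which tested genes without that filter, it was the 1 member with an adjusted p under 0.01 (log2 fold change 5.75, adjusted p = 0.00996), in a fit that called 0.771% of all genes. Cyp2a5 shared 37.0% of its windows, mainly with Cyp2a4.

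Along the genome the tested members lay unevenly in the gene clusters. The Cyp2a, Cyp2b, Cyp2f, Cyp2g, Cyp2s and Cyp2t genes of chromosome 7 (25802475 to 27158668, GRCm38) numbered 13, and only Cyp2s1 and Cyp2b10 were tested. These 2 differed in pattern, Cyp2s1 being even across libraries and Cyp2b10 spread over 3.82 on the log2 scale. The Cyp2c cluster of chromosome 19 held 14 genes, 5 of them tested. In the Cyp4f cluster of chromosome 17, 6 of 8 genes were tested.

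Genes that serve the P450 enzymes had smaller differences than many members. Por had log2 CPM values of 8.44, 8.62 and 8.49 in Apc1322T and of 7.85, 8.46 and 8.64 in ApcMin, a log2 fold change of -0.17 ± 0.20. Among the 9 redox partners, 3 were lower in ApcMin and 0 higher at an unadjusted p under 0.05, beside 7.6% of all genes lower and 7.49% higher. They were the haem-binding membrane protein Pgrmc2 at -0.46 ± 0.10, cytochrome b5 reductase 3 (Cyb5r3) at -0.43 ± 0.15 and cytochrome b5 type B (Cyb5b) at -0.45 ± 0.18 (edgeR adjusted p = 0.257, 0.304 and 0.323). Of 10 genes of haem synthesis and breakdown, 2 were lower at that level: the rate-limiting synthase Alas1 at -0.41 ± 0.15 and Alad at -0.27 ± 0.11. The oxygenase Hmox1, which degrades haem, was at 0.45 ± 0.50.

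Of 22 transcription regulators of P450 genes, 1 (Ahr) was higher and 2, among them Hnf4a, were lower at an unadjusted p under 0.05. Of all genes tested, 7.49% were higher and 7.6% lower at that level. Hnf4a, which controls enterocyte and liver genes, had log2 CPM values of 8.89, 9.38 and 9.42 in Apc1322T and of 8.74, 8.97 and 8.40 in ApcMin, a log2 fold change of -0.53 ± 0.20 (edgeR adjusted p = 0.311). The paralogue Hnf4g had a wider spread, with 4.79, 6.45 and 6.52 against 5.54, 5.82 and 4.39.

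Binding letters of HNF4, CAAAGTCCA on either strand within 250 bases upstream, were found in 8 of the 62 members with a promoter sequence (12.9%), compared with 0.451% of 27025 genes. The 4 tested members with a match were Cyp2c65, Cyp2c68, Cyp3a11 and Cyp3a16, and the 4 untested ones were Cyp2c40, Cyp2c67, Cyp2c69 and Cyp2c70. Members of a subfamily are related copies, so these promoters are not independent. Stretches of 60 bases (RefSeq, GRCm38.p6, in the direction of the gene, matches in capitals) are shown for 3 of them, from chr19:39060865-39060924 on the plus strand, chr19:39741144-39741203 on the minus strand and chr5:145469788-145469847 on the minus strand, since Cyp2c65 and Cyp2c68 were 2 of the 6 members with a p under 0.05.
Cyp2c65: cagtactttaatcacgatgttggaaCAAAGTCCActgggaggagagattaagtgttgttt
Cyp2c68: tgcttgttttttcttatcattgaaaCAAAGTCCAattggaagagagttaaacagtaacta
Cyp3a16: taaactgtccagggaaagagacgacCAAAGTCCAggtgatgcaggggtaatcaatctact
The match starts 116, 77 and 99 bases before the start of the gene. The TATA box letters TATAAA were in 24 of 62 members (38.7%) and in 14.3% of all genes, and the GATA letters AGATAA in 13 of 62 (21%) and in 11.4% of all genes. A match describes the letters of a window and is not evidence of binding in these adenomas.

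P450 genes of other families were examined in the same way. Of 21 such genes 11 were tested, and in none was Apc1322T replicate 2 or 3 the highest library. At an unadjusted p under 0.05, 3 were higher and 0 lower in ApcMin, beside 7.49% and 7.6% of all genes tested. They were the retinoic acid hydroxylase Cyp26a1 at 2.30 ± 0.76, prostacyclin synthase (Ptgis) at 1.38 ± 0.31 and thromboxane synthase (Tbxas1) at 1.06 ± 0.29 (edgeR adjusted p = 0.288, 0.257 and 0.279), all without overlap. With Cyp39a1, at 0.32 ± 0.13, 4 of the 11 had no overlap, beside 21% of all genes tested. The sterol demethylase Cyp51 was even, from 7.81 to 8.02 in log2 CPM over the 6 libraries. The difference between these families and families 1 to 4 was not tested.

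Marker genes of absorptive enterocytes moved with the members. All 13 markers were tested, all had log2 fold changes below 0 with a median of -0.78, and each was highest in Apc1322T replicate 2 or 3. Their summed CPM was 18288, 32969 and 33961 in Apc1322T and 12114, 23521 and 12674 in ApcMin, so that the libraries with the most P450 RNA were those with the most enterocyte marker RNA. The order differed among the low libraries. Apc1322T replicate 1 had the lowest P450 sum, 1285.5 CPM, but a higher enterocyte sum than ApcMin replicates 1 and 3. Abundant genes weigh most in this sum, such as Apoa4 with 8096 CPM in Apc1322T replicate 1. Lactase (Lct) ranged from 2.63 in ApcMin replicate 3 to 9.59 in Apc1322T replicate 3 on the log2 CPM scale, and the lipid transfer protein Mttp had a log2 fold change of -0.96 ± 0.32 (edgeR adjusted p = 0.288). The part of enterocyte content in the P450 values was not tested.

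**Figure D5:**
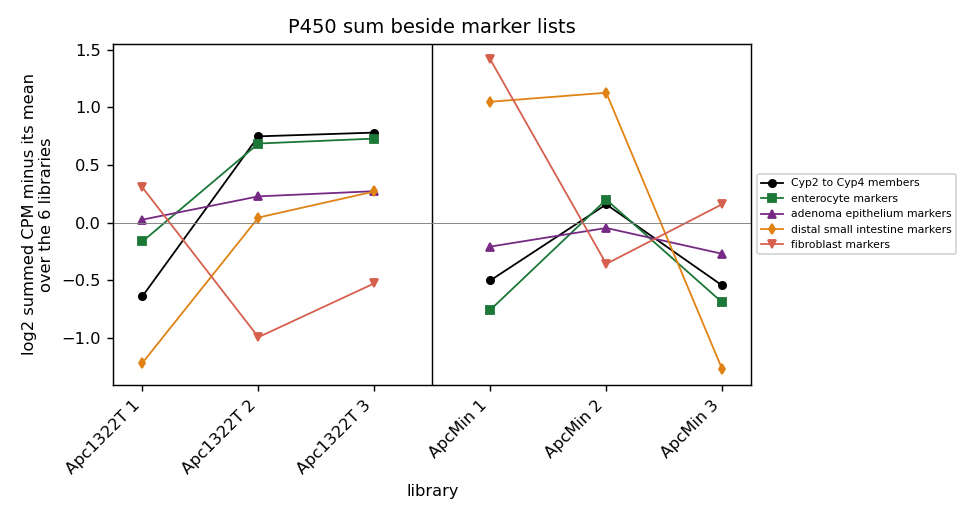
Summed CPM on a log2 scale, each line centred on its mean over the 6 libraries, for the Cyp2 to Cyp4 members (black) and 4 marker lists. The enterocyte line rises and falls with the P450 line, lying above it in Apc1322T 1, while the distal small intestine line is highest in ApcMin 1 and 2 and the fibroblast line in ApcMin 1.

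Other marker lists moved in other ways. The 10 adenoma epithelium markers summed to 11297 to 13406 CPM in Apc1322T and 9198 to 10743 CPM in ApcMin. At an unadjusted p under 0.05, 5 of the 10 were lower in ApcMin, among them Epcam and Cdh1, beside 7.6% of all genes tested. The 7 distal small intestine markers summed to 100.2 to 281 CPM in Apc1322T and 96.4 to 509 CPM in ApcMin, and the 5 proximal markers to 522 to 1762 and 397 to 2521 CPM. The 5 fibroblast markers summed to 450 to 1108 CPM and 699 to 2393 CPM, the 6 smooth muscle markers to 127 to 255 and 276 to 402 CPM, the 5 endothelial markers to 90.8 to 137 and 131 to 183 CPM and the 8 immune markers to 411 to 547 and 330 to 978 CPM. Within each genotype the library lowest for Cyp1b1 was also the lowest for fibroblast markers, but among the ApcMin libraries Cyp1b1 was highest in replicate 3, at 76.8 CPM, and the fibroblast sum in replicate 1. The part of these cells in the Cyp1b1 value was not tested. The 5 squamous markers summed to 6.16 to 8.67 CPM in Apc1322T and 33.6 to 45.6 CPM in ApcMin, and the 7 stomach markers to 123 to 624 and 139 to 311 CPM. The 7 pancreas acinar markers summed to 73.5 to 153 CPM in Apc1322T and 90.2 to 270 CPM in ApcMin. The 6 hepatocyte markers summed to 16.0 to 33.4 CPM over all libraries, nearly all from Alb, while the defining liver gene Fgb was at 0 counts in every library.

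Leaving out Apc1322T replicate 1 changed the counts most. Without that library, 17 of 38 members had an unadjusted p under 0.05, beside 24.4% of all genes, and 24 did not overlap, beside 47.7% of all genes. The lowest adjusted p values were then 0.0462 for Cyp2c68 (log2 fold change -1.37) and 0.0482 for Cyp2c66 (-1.67), and no member reached an adjusted p under 0.01. The count at an unadjusted p under 0.05 was 1 of 38 without Apc1322T replicate 2, beside 6.92% of all genes, and 2 of 39 without Apc1322T replicate 3, beside 8.63%. It was 1 of 37 without ApcMin replicate 1, beside 11.8%, 7 of 39 without ApcMin replicate 2, beside 12.6%, and 0 of 36 without ApcMin replicate 3, beside 9.87%. Members without overlap numbered 12 of 39 without ApcMin replicate 2, beside 31.7% of all genes.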

How the data were processed

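The authors quantified directional RNA-seq libraries with Salmon (the submitters' notes also name DESeq2 and build GRCm38.p6) and deposited 1 table of estimated counts per gene for 6 libraries. Here the deposited estimated counts were rounded, scaled by TMM and tested with edgeR 4.0.16 in R 4.3.3 (robust quasi-likelihood, minimum count 10 in filterByExpr, Benjamini-Hochberg over all tested genes, threshold 0.01). Values are log2 CPM with a prior count of 2. Gene IDs were matched to GENCODE M21 (34652 of 34866), and levels per kb used the union of exons. limma 3.58.1 and DESeq2 1.42.0 were alternatives. Code was tested on simulated data. Members and gene lists were chosen with earlier results of these data known. Genes named were all Cyp1 members, the most abundant tested member per kb of each subfamily, tested members without overlap and a p under 0.05, and the 5 with the largest change and the 5 with the largest SD within a genotype; others are named with their values. Replicate numbers did not pair the libraries (correlations of deviations -0.0139, 0.164 and -0.286). Protein sequences were not used here. Single values of 2 of the listed genes are not reported here.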

Additional observations from a re-analysis of the deposited data

How the results depend on the processing

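No member reached an adjusted p under 0.01 in edgeR with DESeq2 size factors, upper-quartile scaling, no filter, a filter of CPM over 1 in 3 libraries, no robust estimation, any library left out or a threshold of 0.05, nor in limma-voom; the Wald test of DESeq2 gave 1 member. At an unadjusted p under 0.05 there were 3 of 37 members with upper-quartile scaling (14.5% of all genes), 3 of 66 without a filter (10.8%), 10 of 66 with DESeq2 (11.5%), 1 of 37 with limma-voom (14%) and 0 to 17 with a library left out (6.92% to 24.4%). Members without overlap numbered 1 of 28 with the filter of CPM over 1 (21.2% of all genes) and 2 to 24 with a library left out (25% to 47.7%). Their median log2 fold change stayed below 0, between -0.75 and -0.26. Log2 fold changes near 0 changed sign. With upper-quartile scaling Cyp2s1 was at 0.0087 and Cyp2u1 at 0.031. With 1 library left out the range was -0.13 to 0.032 for Cyp2s1, -0.56 to 0.56 for Cyp2u1, -0.84 to 0.37 for Cyp4a10, -0.53 to 0.13 for Cyp4b1 and -0.33 to 0.24 for Cyp4x1. The cause was not tested. The replicate numbers did not pair the libraries. With a replicate block the fit gave 0 members at an adjusted p under 0.01 and a median of -0.39. At an unadjusted p under 0.05 that fit gave 4 of 37 members (12.8% of all genes). With 3 libraries a genotype and the spread seen among them, a member that was not called cannot be taken as equal between the genotypes. The smallest detectable difference was not computed.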
